A study of Triticum aestivum and Zea mays with 29 samples.

Results

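TS13 is a wheat target site of a Cas12a crRNA, present in 1 copy on each of the 3 subgenomes. It was 1 of 12 guides and its copies were 3 of 24 amplicons in the series, which tested base editors in wheat and maize protoplasts. The members were taken by name: the B copy (TS13-B) in a table of C-to-T percents and in a table of A-to-G percents, and the 3 TS13 amplicons in read summaries of 4 libraries whose arms are not given. In the first experiment, leaf mesophyll protoplasts of wheat cultivar Fielder received 1 of 6 cytosine base editor (CBE) combinations together with 4 crRNAs. There were 3 replicates, each taken as its own sequencing library. In the second they received the adenine base editor (ABE) v9h with 6 crRNAs, in 3 replicates of 1 library. Transfected cells were sorted on GFP before amplicon sequencing, so every percent refers to sorted cells.

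CBE1 and CBE4 carried the cytidine deaminase A3A on LbCas12a(D832A), the v3 architecture. CBE2 and CBE5 carried A3A joined by an XTEN linker to LbCas12a(D156R-D832A), v11, and CBE3 and CBE6 had the 6xGGGGS linker in its place, v12. The v11 and v12 plasmids also name a BPstar signal and an SV40 signal that the v3 plasmid does not, so D156R is 1 of several differences from v3. CBE1, CBE2 and CBE3 used system a, a p35S-driven crRNA between the HH and HDV ribozymes. CBE4, CBE5 and CBE6 used system h, in which the TaU3 promoter drives a tRNA, a mature direct repeat (DR), the spacer and another mature DR. The editor v9h joined the adenine deaminase TadA8e to LbCas12a(D156R-D832A), also with system h. All editors were expressed from pZmUBI. The CBE experiment had a control arm in 3 replicates and the ABE experiment a control in 1 replicate, and what those cells received is not stated in the key of either table.

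LbCas12a reads a T-rich PAM directly upstream of its protospacer and displaces the strand that carries the PAM sequence shown here. A deaminase fused to a catalytically dead Cas12a acts on that displaced strand: a cytidine deaminase turns C into U, which is copied as T, and an adenine deaminase turns A into inosine, which is read as G. CBEs carry a uracil glycosylase inhibitor (UGI), which slows removal of the U. Positions are counted from 1 at the base next to the PAM.

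The 3 genomic copies are shown 5′ to 3′ with the PAM followed by the spacer of 23 bases, because they differ at a single base, in capitals. The crRNA matched the B copy at every position. Counted against the crRNA, the A copy carries T20C and the D copy T20G. The gene identifiers are TraesCS3A02G492900, TraesCS3B02G554300 and TraesCS3D02G500600, on chromosomes 3A, 3B and 3D by their names.
TS13-A: tttcttggacgctaataacacggCatg
TS13-B: tttcttggacgctaataacacggTatg
TS13-D: tttcttggacgctaataacacggGatg

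The editable bases of the spacer are shown in capitals, first the cytosines and then the adenines. All 4 cytosines (C6, C8, C15 and C17) are listed in the C-to-T table. Of 7 adenines, 3 are listed in the A-to-G table (A10, A11 and A13), and A5, A14, A16 and A21 have no value there. No cytosine of the spacer follows a T: C6, C15 and C17 follow an A, and C8 follows a G. Of the listed adenines, A10 and A13 follow a T.
TS13-B cytosines: ttggaCgCtaataaCaCggtatg
TS13-B adenines: ttggAcgctAAtAAcAcggtAtg

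The oligos used to clone the crRNA hold the same spacer, in capitals, and show how the systems differ around it: in system a the repeat precedes the spacer, and in system h a direct repeat and a run of T also follow it.
System a oligo: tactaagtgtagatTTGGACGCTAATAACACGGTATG
System h oligo: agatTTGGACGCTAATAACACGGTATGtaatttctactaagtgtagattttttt

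The amplicon of the B copy is 218 bases long, and the site lies near its middle, with the PAM and spacer in capitals. Aligned with it, the A amplicon (217 bases) has 8 mismatched and 1 gapped base and the D amplicon (216 bases) 8 mismatched and 2 gapped, which let reads be assigned to a copy.
TS13-B amplicon: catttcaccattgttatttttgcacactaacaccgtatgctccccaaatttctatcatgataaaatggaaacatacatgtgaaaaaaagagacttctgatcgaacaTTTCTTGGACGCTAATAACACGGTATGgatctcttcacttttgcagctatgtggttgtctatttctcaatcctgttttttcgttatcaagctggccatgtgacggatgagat

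C-to-T editing at TS13-B was highest at C8 and C6, the cytosines nearer the PAM, and lower at C15 and C17. At C8, CBE5 gave 23.86, 21.58 and 25.92% in its replicates and CBE6 gave 22.11, 22.03 and 27.45%. CBE4 gave 17.77, 18.28 and 19.83% at this base. These 3 arms with system h did not overlap the 3 arms with system a. CBE1 gave 3.89, 3.84 and 3.07%, CBE2 8.22, 9.46 and 14.51%, and CBE3 12.92, 8.76 and 10.8% at C8. All 3 control replicates were listed at 0 at C8.

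C6, 2 bases nearer the PAM, followed closely. CBE5 gave 21, 18.06 and 23.4% and CBE6 gave 19.63, 18.83 and 24.8% at C6. CBE4 gave 16.3, 14.4 and 14.91% there. The arms with system a were lower again, with 2.63, 2.89 and 1.18% for CBE1, 6.31, 7.24 and 9.99% for CBE2, and 10.46, 6.7 and 8.11% for CBE3. The control had 0.48, 0.21 and 0% at C6, below every edited replicate.

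Past the middle of the spacer the percents dropped. At C15, CBE5 gave 4.25, 4.8 and 5.49%, CBE6 2.65, 6.07 and 3.44%, and CBE4 2.29, 2.81 and 2.06%. With system a, C15 had 0.31, 0.69 and 0% for CBE1, 1.61, 1.28 and 3.02% for CBE2, and 5.05, 2.27 and 1.46% for CBE3, so that CBE3 and CBE6 overlapped at this base. The control was listed at 0 at C15 in all 3 replicates, and so was 1 replicate of CBE1.

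C17 was the base on which the control mattered most. The control had 0.34, 0.31 and 0.45% at C17, above 0 in every replicate. CBE1 had 0.24, 0.33 and 0.34%, which is not above that range in any replicate. CBE2 (0.35, 1.22 and 0.37%) exceeded the highest control replicate in 1 of 3 replicates and CBE3 (2.02, 0.28 and 0.63%) in 2 of 3. The arms with system h all stood above it, with 1.47, 1.17 and 0.91% for CBE4, 3.45, 4 and 2.56% for CBE5, and 2.51, 3.14 and 3.4% for CBE6.

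Counted as above the control only where all 3 replicates exceeded the highest control replicate, 2 of 4 TS13-B cytosines passed in CBE1, where 30% of the 10 listed cytosines of all targets did. In CBE2 and CBE3, 3 of 4 passed, against 60% and 70% of the listed cytosines. All 4 passed in CBE4, CBE5 and CBE6, against 60%, 80% and 70%. The listed cytosines include those of TS13-B. The read depth behind a percent is unknown, and no value lay between 0 and 0.21% in this table, so a value listed at 0 says only that it fell below about that size.

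The editing level of TS13-B, the mean over its 4 cytosines, was compared with the control first. It was 0.149 ± 0.0491% (SD, n = 3) in the control and lay between 1.62 ± 0.416% for CBE1 and 13.2 ± 1.12% for CBE5 (n = 3 each). The editors exceeded the control by 7.89 points (exact permutation test over 18 against 3 replicates, two-sided p = 0.00301). The lowest edited replicate, at 1.15% in CBE1, was above the highest control replicate, at 0.205%.

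The order of cytosines was nearly the same in every arm. C8 was the most edited base in 18 of 18 arm-replicates, C6 exceeded C15 in 18, and C15 exceeded C17 in 17, the exception being the CBE1 replicate with C15 at 0. Relative to C8, editing at C6 was 87.3 ± 3.35% in CBE5, 88.2 ± 2.49% in CBE6 and 81.9 ± 8.70% in CBE4 (SD, n = 3). With system a it was 60.4 ± 19.4% in CBE1, 74.0 ± 4.50% in CBE2 and 77.5 ± 3.07% in CBE3. At the far end, C17 relative to C8 was between 6.42 ± 1.84% in CBE4 and 14.3 ± 4.33% in CBE5.

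The choice of crRNA system moved every cytosine of the site. Over the 3 architectures the level was 11.9% with system h and 4.23% with system a, a gain of 7.62 ± 0.571 points (SE), or 2.80-fold (exact permutation within architecture, two-sided p = 0.00025, the smallest that 8000 arrangements allow). C6 rose from 6.17 to 19.0%, by 12.9 ± 0.995 points, and C8 from 8.39 to 22.1%, by 13.7 ± 1.07 points. C15 rose from 1.74 to 3.76% and C17 from 0.642 to 2.51%. Over 12 tests (4 cytosines by 3 contrasts), the adjusted exact permutation p was 0.001 at C6, C8 and C17 and 0.0075 at C15.

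Within single architectures the replicates of system h lay wholly above those of system a at 4 of 4 cytosines for CBE4 over CBE1 and for CBE5 over CBE2, and at 3 of 4 for CBE6 over CBE3. The same count over all 10 listed cytosines came to 60%, 60% and 40%. With 3 against 3 replicates a single pair of arms cannot reach a two-sided p below 0.1.

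The gain from system h differed between architectures as a ratio, and no difference was detected in points. The level rose by 7.73 ± 0.528 points in v3, by 7.90 ± 0.969 points in v11 and by 7.22 ± 2.79 points in v12 (SD over the 3 libraries). That made it 5.78-fold in v3, where the starting level was 1.62%, 2.49-fold in v11 and 2.25-fold in v12. Set against v11 and v12 together, the gain in v3 differed by 0.17 points (exact permutation of 84 arrangements, two-sided p = 0.881). On the scale of log2(percent + 0.1) it was greater by 1.23 (p = 0.0119 by the same exact permutation, the smallest it allows, and 0.0238 after adjustment over these 2 tests). Both tests were chosen after the values were seen, and the architectures of a library share that library.

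System h also shifted editing within the spacer by a small amount. Of the summed C-to-T percent, 46.9% fell at C8 with system h and 51.7% with system a, a difference of -4.77 ± 2.04 points (exact permutation within architecture, two-sided p = 0.0175). The share at C6 went the other way, from 35.8 to 40.2%. The shares at C15 (7.82 against 8.52%) and C17 (5.13 against 4.01%) did not pass the test (exact permutation, adjusted p = 0.66 and 0.38 over 4 shares). The C8 result rested in part on single libraries: without replicate 3 the difference was -2.81 points (exact permutation p = 0.13) and without replicate 2 it was -5.65 points (p = 0.0648). CBE1 replicate 3, with 66.9% of its sum at C8, was the highest of all. The control was not subtracted from these shares. With the control subtracted first, the C8 difference was -6.99 points (exact permutation p = 0.003).

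The v11 architecture exceeded v3 at every cytosine of TS13-B. With the XTEN linker and D156R the level was 9.25%, against 5.48% for v3 under the same crRNA systems, a gain of 3.76 ± 0.553 points (exact permutation within crRNA system, two-sided p = 0.005, the smallest that 400 arrangements allow). The replicates of CBE2 and CBE1, and of CBE5 and CBE4, did not overlap at any of the 4 cytosines. C6 rose from 8.72 to 14.3%, C8 from 11.1 to 17.3%, C15 from 1.36 to 3.41% and C17 from 0.743 to 1.99% (adjusted exact permutation p = 0.0075 at each). At C17, all 3 CBE1 replicates and 2 of 3 CBE2 replicates were not above the highest control replicate.

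The linker made no difference that could be told from the replicate spread. The level was 9.40% with 6xGGGGS and 9.25% with XTEN, a difference of 0.15 ± 0.847 points (SE; exact permutation, two-sided p = 0.825). An interval of 2 SE on either side runs from -1.54 to 1.84 points, so a shift of that size at this site would not have been seen. CBE3 and CBE2, and CBE6 and CBE5, overlapped at all 4 cytosines.

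TS13-B was the most edited of the 4 wheat targets of this experiment in 15 of 18 arm-replicates. Its level exceeded the mean of TS60-A, TS112-A and TS121-D by 5.94 points (exact sign flips over 18 arm-replicates, two-sided p = 7.63e-06). The levels average unlike bases: 4 cytosines at TS13-B, 2 at TS60-A, 3 at TS121-D and C16 alone at TS112-A. The arms of a library share that library, and over the means of the 3 libraries the same difference has an exact permutation p of 0.25, the smallest possible. With CBE1 the site led in 1 of 3 replicates (1.62% against 1.87 ± 0.574% at TS60-A) and with CBE3 in 2 of 3.

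The spacers of the other targets are shown with the listed cytosines and adenines in capitals, because they let the same position be compared at different sites.
TS60-A: tctcctaCAAAgCtagagtatca
TS112-A: aagataaAtAtgagtCagaccgt
TS121-D: tctccCtAAtAttgCtCgtcttt

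TS13-B was ahead at each of its 4 cytosines when set against the same position elsewhere. C8 is also listed in TS60-A, where it follows an A. It averaged 15.2% over the 18 arm-replicates at TS13-B and 6.17% at TS60-A, and was higher at TS13-B in 15 of 18. C6, C15 and C17 are also listed in TS121-D, where C6 follows a C, C15 a G and C17 a T. C6 averaged 12.6% at TS13-B and 0.392% at TS121-D, C15 2.75% and 0.408%, and C17 1.58% and 0.898%. At TS121-D, C6 was listed at 0 in 12 of 18 arm-replicates, C15 in 4 and C17 in 7, so those means are near the limit of the values. TS13-B was higher in 18, 17 and 15 of 18 arm-replicates, and all 4 differences passed (exact sign flips, two-sided adjusted p between 3.05e-05 and 0.00298 over 4 tests), although over the 3 library means none can go below 0.25. With CBE5 the difference was small at C17, with 3.34 ± 0.727% at TS13-B and 2.80 ± 0.396% at TS121-D (SD, n = 3).

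In points, the gain from system h in the level was also larger at TS13-B than the mean of the other targets. It was 7.62 points at TS13-B and 0.66 points as the mean of the other 3, and the difference of 6.95 points was above 0 in 9 of 9 pairs of architecture and library (exact sign flips, two-sided p = 0.00391, adjusted 0.00651 over 5 tests). At C8 the gain was 13.7 points at TS13-B and 1.17 points at TS60-A, with the difference above 0 in 9 of 9 (the same adjusted p by exact sign flips), and at C6 it was 12.9 points, against 0.33 points at TS121-D, with the same count and adjusted p. At C17 the gain was 1.87 points, against 0.73 at TS121-D, with the difference above 0 in 7 of 9 (exact sign flips, adjusted p = 0.0195). At C15 the gain was 2.02 points, against 0.24 at TS121-D, and the difference, above 0 in 8 of 9, did not pass (adjusted p = 0.0625 by exact sign flips). The 9 pairs come from 3 libraries, and over the library means each of these 5 differences has an exact p of 0.25, the smallest possible. Whether these gains go with the starting level of a target was not tested, and neither was the gain as a ratio between targets. From CBE1 to CBE4 the level went from 1.62 to 9.35% at TS13-B and from 1.87 to 4.29% at TS60-A. It went from 0.127 to 0.18% at TS121-D and was listed at 0 in both arms at TS112-A. From CBE2 to CBE5 the level went from 5.30 to 13.2% at TS13-B and from 0.443 to 1.28% at TS121-D. It went from 4.19 to 5.71% at TS60-A and from 1.34 to 1.11% at TS112-A.

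A-to-G editing by v9h at the same site was at or near the limit of the table. A10 and A11 were listed at 0 in all 3 replicates and in the control. A13 had 0, 0.45 and 0.92%, with the control listed at 0. Of 9 v9h values at TS13-B, 2 were above 0, both at A13, and the smallest value above 0 anywhere in this table was 0.24%. None of the 3 adenines exceeded the control in every replicate, where 12.5% of the 16 listed adenines did. With 1 control replicate, 3 against 1 cannot reach an exact p below 0.25, so the 0.457 ± 0.460% at A13 (SD, n = 3) was not tested against it.

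The same adenine positions can be set beside other targets of the v9h table as values. A10 was 4.06, 4.23 and 3.34% at TS112-A, where it follows a T as it does in TS13-B, and was listed at 0 at TS60-A. A11 was 1.46, 0 and 1.43% at TS121-D and listed at 0 at TS60-A and TS105-B. A13 was listed at 0 at TS242-B, the other site where it is listed.

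The gap between the editor types at TS13-B was wide. The most edited base was C8 with CBE5, at 23.8 ± 2.17%, and A13 with v9h, at 0.457 ± 0.460% (SD, n = 3 each), a difference of 23.3 ± 1.28 points (SE) with no overlap. The exact permutation p was 0.1, the smallest that 3 against 3 allows. Averaged over the listed bases, the levels were 13.2% with CBE5 and 0.152% with v9h. CBE6 and CBE4, which also used system h, were 23.4 and 18.2 points above v9h at the most edited base. Because 1 v9h replicate was listed at 0, no fold is given.

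Between bases 2 or 3 positions apart on the same strand the difference was wide around C8 and smaller around C15. C8, with 23.8% in CBE5, lies 2 bases from A10 and 3 from A11, both listed at 0 with v9h. A13 lies 2 bases from C15, which had 4.85 ± 0.621% in CBE5 and 4.05 ± 1.79% in CBE6, and the differences from A13 with v9h were 4.39 and 3.60 points.

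The gap was not a common factor over targets. At the most edited base of each target, CBE5 exceeded v9h by 5.70 points at TS60-A and by 1.84 points at TS121-D, while CBE5 minus v9h was -2.77 points at TS112-A, where CBE5 had 0.69, 1.33 and 1.31%. CBE6, with 3.42, 2.7 and 2.44%, overlapped v9h at TS112-A (difference -1.02 points, exact permutation p = 0.2), and CBE4 was listed at 0 there in all 3 replicates. At TS121-D both CBE6 (0.30 points) and CBE4 (-0.50 points) overlapped v9h. At TS60-A, as at TS13-B, all 3 arms with system h lay above v9h. TS13-B took 63.2, 55.5 and 67.4% of the summed level of the 4 shared targets with CBE5, and 0, 5.43 and 10.4% with v9h, without overlap (56.8 points apart, exact permutation p = 0.1, the smallest possible). With v9h it was the lowest of the 4 in 2 of 3 replicates. The CBE and v9h values came from separate experiments and libraries, with 4 and 6 crRNAs delivered together and with editors that differ in more than the deaminase, so editor type and experiment cannot be told apart. The tables also list different bases.

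In the 4 libraries without given arms, reads were counted per TS13 amplicon with no split by transfection. The amplicons are numbered 1, 2 and 3. Number 3 is the number that the B copy carries in the C-to-T values. Numbers 1 and 2 were taken as the A and D copies from the order of the study's target list alone, and the A and D values below rest on that order. The B copy had between 323632 and 412290 reads per library, the A copy between 137836 and 262097, and the D copy between 251723 and 379504. A read counted as modified when it held any substitution, insertion or deletion in the window that was scored, so these percents are not C-to-T or A-to-G levels.

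Modified reads at the B copy made up 4.63% of reads in library 1 (95% Wilson interval 4.56 to 4.69%), 5.35% in library 2 (5.28 to 5.43%), 4.41% in library 3 (4.34 to 4.47%) and 4.47% in library 4 (4.40 to 4.55%). Library 2 stood highest at this copy and, with 5.01%, at the D copy. At the A copy the range was from 4.47% in library 4 to 4.88% in library 1. In library 4 the intervals of the 3 copies overlapped. In the other libraries the B copy was above the D copy by 0.47, 0.34 and 0.29 points, while it was 0.26 points below the A copy in library 1, 0.74 above in library 2 and 0.37 below in library 3. Intervals treat reads as independent molecules, which amplicon reads are not, and they cover no spread between replicates. They may be too narrow, and a difference between copies was not tested.

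Nearly all modified reads held substitutions. Deletions were seen in 6 to 19 reads of the B copy per library, at most 0.00519% of reads, in 5 to 12 of the A copy and in 9 to 26 of the D copy. Insertions were at 0 in all 4 libraries at the A and B copies, which allows up to 0.00218% of reads in the shallowest case by a limit of 3 reads (0.00279% by the Wilson interval), and in 1 to 6 reads at the D copy. Over the 60 values of the 15 other wheat amplicons, modified reads ran from 2.84 to 9.03% with a median of 4.30%, and the 12 TS13 values, from 4.11 to 5.35%, fell inside that range. No library of this set is a known control, so the part that is sequencing error is not known.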

How the data were processed

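The authors amplified target regions from sorted wheat protoplasts, sequenced them as paired reads and scored edits with CRISPResso2. The deposited tables give C-to-T and A-to-G values in percent of reads per base and replicate, with no read depth, and the deposited summaries give read counts and percent modified per amplicon. No reads were aligned again. What was computed is the level (mean over the listed bases of a target), shares, differences, exact permutation or sign-flip tests over replicates and Wilson intervals, with Python 3.11.15, NumPy 2.4.6 and SciPy 1.17.1. The tests were checked on simulated data. The threshold was 0.05. No low-value filter was applied, and values listed at 0 were kept at 0.

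Every listed cytosine and adenine of TS13 is given. The members and comparisons were chosen with earlier results of these data known. Sequences come from the study's supplementary target and oligo lists. None of the 3 gene identifiers matched the RefSeq gene table (0 of 3), so no coordinates are given. The labels do not give the arms of 4 libraries, so their values enter no comparison between groups. C-to-T values of TS13-A and TS13-D are not analysed here, so the planned comparisons between copies were not made.

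Replicate numbers pair the CBE arms, since each number was taken as the sequencing library of the same number. That match was inferred: the titles number only the libraries, and the study's demultiplexing statistics list every arm in every library. The arms' deviations from their means did not all move together: of 15 pairs of arms, 8 correlated above 0.1, and the full range was from -0.81 to 0.79. Each correlation rests on 3 replicates, too few to decide whether the arms share library effects. The study's figure legend describes the replicates as independent. Alternatives were the most edited base, log2(percent + 0.1), subtraction of the control, CBE6 or CBE4 in place of CBE5, positions 5 to 17, the replicate block and leaving out each replicate. Setting values listed at 0 to 0.2% was added after seeing the data, as were the tests of the gain by architecture, of the gain by target and of matched positions. The comparison of the gaps at TS13-B and TS112-A was also added then.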

Additional observations from a re-analysis of the deposited data

Results flagged for a closer look

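At TS13-B every CBE5 replicate lay above every v9h replicate at the most edited base, and at TS112-A, the target with the most negative gap, every CBE5 replicate lay below. CBE6 overlapped v9h at TS112-A. With CBE5 the 2 gaps differed by 26.1 points (exact permutation of TS13-B minus TS112-A between CBE5 and v9h, two-sided p = 0.1, the smallest that 3 against 3 allows). TS112-A was picked by its gap in these same values, so a large difference was partly built in. TS13-B minus TS112-A was 23.2, 20.3 and 24.6 points in the CBE5 replicates and -4.06, -3.78 and -2.42 points in those of v9h.

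The gain of system h over system a was 6.95 points larger at TS13-B than the mean of the other 3 targets (exact sign flips, adjusted p = 0.00651, and 0.25 over the 3 library means, the smallest possible). The gain as a ratio was not tested between targets. On the log2 scale the gain at TS13-B was 1.23 larger in v3 than in v11 and v12, and in points the gain in v3 was 0.17 larger (exact permutation, adjusted p = 0.0238 and 0.881).

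In the libraries without given arms, which enter no comparison between groups, modified reads reached 5.35% at the TS13-B amplicon of library 2. This value lay inside the range of the other wheat amplicons (2.84 to 9.03%), and the part that is sequencing error is not known.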

How the results depend on the processing

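Of 39 alternative values of the C-to-T comparisons, 32 kept their direction and their side of the threshold, and subtracting the control could not change the differences in level between arms. The CBE5 minus v9h comparisons kept their direction in all 32 alternatives, where no p can pass the threshold. Some of these could not move the value. Positions 5 to 17 hold every listed base of TS13-B, and the control was listed at 0 at C8 and A13, the most edited bases. With the replicate block (sign flips within each library) the h over a gain kept 7.62 points (exact p = 0.00391), the v11 over v3 gain 3.76 points (p = 0.0313), the linker difference 0.15 points (p = 0.813), the C8 share -4.77 points (p = 0.0391) and the excess over the control 7.89 points (p = 0.00292, control label permuted within each library). Averaged to 3 libraries, TS13-B over the other targets stayed at 5.94 points with an exact p of 0.25, the smallest that 3 values allow, and the same holds for the comparisons at matched positions and of the gain between targets. It changed no other call.

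Leaving out 1 replicate number gave 2.96 to 4.19 points for v11 over v3, where 36 arrangements cannot go below an exact p of 0.0556, and -5.86 to -2.81 points for the C8 share (exact p from 0.037 to 0.13). The linker difference ran from -0.30 points, without replicate 1, to 0.55 points, without replicate 3. The h over a gain ran from 7.23 to 7.95 points, the excess over the control from 7.57 to 8.15 points and the lead over the other targets from 5.52 to 6.25 points. CBE5 minus v9h ran from 22.3 to 24.4 points at the most edited base, and the difference in the share of the shared targets from 54.1 to 60.0 points. The mean at A13 in v9h ran from 0.23 to 0.69%, depending on the replicate left out. The comparisons of TS13-A and TS13-D with TS13-B were not run. Unknown depth per percent limits what a value listed at 0 can say.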
